A study of Mus musculus with 18 samples.

Results

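RNA from the polysomes of elongating spermatids was set directly against RNA from the polysomes of pachytene spermatocytes, the latest and the earliest cell type of the study. The comparison holds 6 of the 18 libraries of the series, 3 from elongating and 3 from pachytene polysomes, chosen by their labels alone. All came from the testes of adult wild type C57BL/6 mice. The cells had been purified by sedimentation through a BSA gradient (STA-PUT) and lysed, with cycloheximide, which holds ribosomes on mRNA, in the buffers. Polysomes are the heavy fractions of the sucrose gradient that followed. The study pooled several testes per purification, judged purity by cell shape and put it lower for elongating spermatids than for pachytene spermatocytes, and its text does not say which libraries share a purification. P-values therefore measure only the spread between these libraries.

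Pachytene spermatocytes are in the long prophase of meiosis, when homologous chromosomes are held together by the synaptonemal complex and recombine. Elongating spermatids are haploid. They replace their histones with transition proteins and then protamines, condense the nucleus, shape the acrosome and build the flagellum. Transcription stops in mid-spermiogenesis, so many late proteins are made from mRNAs that were stored in ribonucleoprotein particles (RNPs) and loaded on polysomes later.

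Each library was deposited as its own transcript assembly with an FPKM, a fragment count divided by transcript length and by the fragments mapped in the library, for each transcript, and without read counts. A gene value is the sum of FPKM over the spliced transcripts that shared a splice junction with it, divided by a factor for each library, and is called scaled FPKM. The transcripts so matched held 9.79% to 11.1% of all deposited FPKM in elongating libraries. In pachytene replicates 1, 2 and 3 they held 8.13%, 4.80% and 10.1%. The rest, in unspliced or unmatched transcripts, is left out of these values. A transcript that was not assembled is listed at 0, which is not a measured absence. A log2 change is elongating minus pachytene on the log2(scaled FPKM + 1) scale, given with its standard error. A gene is called higher or lower where limma, run over all 12758 genes tested, gave it an adjusted p (Benjamini-Hochberg) under 0.05. Depth is unknown, since the files give no counts. Elongating libraries correlated with each other across genes at 0.861 to 0.876 and pachytene libraries at 0.751 to 0.836 (Pearson, log2 values). Between the groups pachytene replicate 1 correlated with the elongating libraries at 0.747 to 0.758, and pachytene replicates 2 and 3 at 0.536 to 0.645, so replicate 1 stood nearer to the elongating libraries.

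Polysome RNA differed widely between the 2 cell types. In elongating polysomes 1319 genes were higher, which is 10.3% of those tested, and 1069 were lower, which is 8.38%. The increases included mRNAs for the condensing nucleus and the flagellum, and the decreases included genes of synapsis, the cell cycle and the piRNA pathway, together with markers of Sertoli and Leydig cells. A log2 change of at least 2 was reached by 909 of the higher and 536 of the lower genes. The 3 libraries of each group did not overlap for 2689 genes that were higher (21.1% of those tested) and 2603 that were lower (20.4%), and every called gene was among them. With FPKM as deposited, whose median change over all genes was -0.22, the split turned to 1129 higher and 1417 lower.

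**Figure D1:**
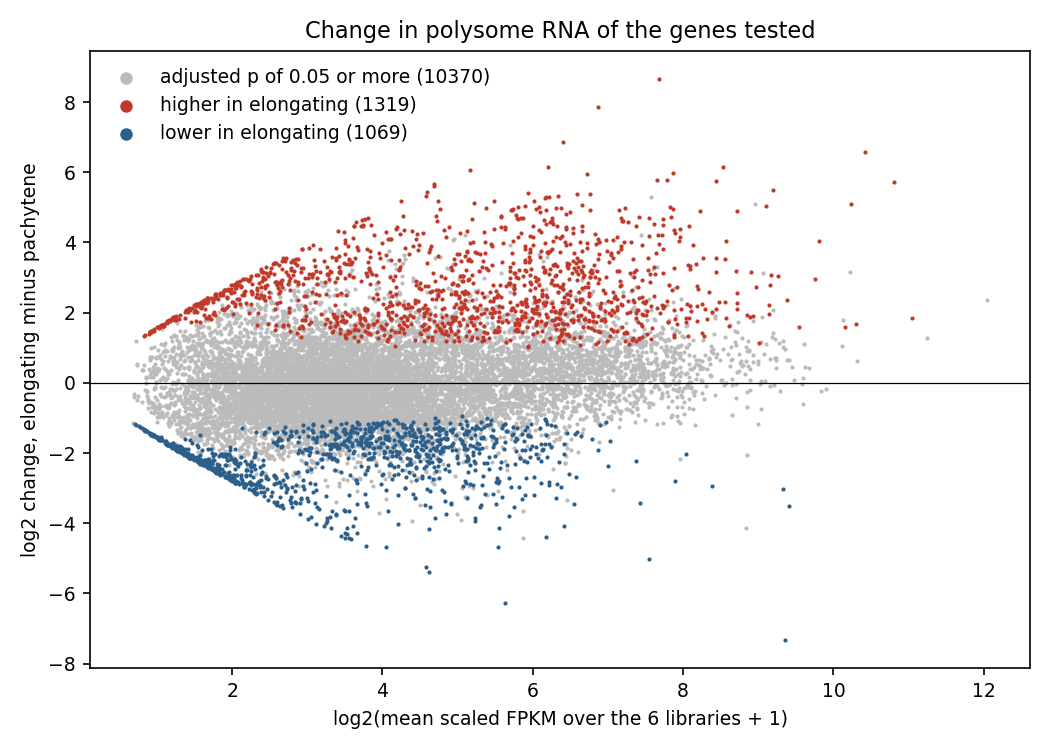
Change in polysome RNA for each of the 12758 genes tested, as the log2 change of elongating minus pachytene (vertical axis), against the log2 of mean scaled FPKM + 1 over the 6 libraries (horizontal axis). The 1319 genes higher and the 1069 genes lower in elongating polysomes are coloured, and the other genes are grey.

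Several limits bear on these counts. In 205 of the higher genes all 3 pachytene libraries were listed at 0, and in 354 of the lower genes all 3 elongating libraries were, so these passed the filter through the other group alone and no fold is given for them. A second gene value was added after the data were seen. It weights each FPKM by transcript length and adds unspliced pieces that lie in the exons of the gene on the same strand. With these length-weighted values 2633 genes were higher (19.4% of 13576 tested) and 2156 lower (15.9%), and 1177 of the 1319 and 908 of the 1069 genes were called the same way. Leaving out 1 library cut the calls to between 199 and 493 higher and between 110 and 309 lower genes for 5 of the 6 libraries, and left 1724 higher and 1044 lower genes without pachytene replicate 1. The same call was kept through all 6 omissions by 145 of the higher and 48 of the lower genes. Counts of list members moved likewise and are given for most lists without each library in turn. These counts can include members listed at 0 in all 3 libraries of 1 group. The lists were chosen with earlier results of these data known, so their shares describe these data and are not independent evidence.

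The labelled cell types were set beside markers, whose lists were chosen with earlier results of these data known. Of 10 tested markers of elongating spermatids 8 were higher (80%, beside 10.3% of all genes) and none was lower. Their median log2 change was 5.10, against -0.00 over all genes. Their summed scaled FPKM was 16138, 8587 and 11232 in elongating polysomes, against 1297, 36.4 and 330.0 in pachytene polysomes. The count higher was 3, 4 and 2 without elongating and 8, 4 and 2 without pachytene replicates 1, 2 and 3. Pachytene replicate 1 held the most spermatid mRNA of its group and replicate 2 the least. Of 9 markers of pachytene spermatocytes 4 were lower (44.4%, beside 8.38% of all genes), Sycp1, Sycp3, Piwil1 and Tex101, and 1, Hspa2, was called higher. Hspa2, a chaperone of meiotic cells, shows how assembly can set a value. Its spliced transcript was listed at 214, 263 and 218 scaled FPKM in elongating polysomes, against 0 in all 3 pachytene libraries, where the gene was assembled without its intron. With unspliced pieces added, the log2 change of Hspa2 was -0.08 (limma, adjusted p = 0.911).

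Markers of somatic cells moved with the comparison. Of 18 tested Sertoli cell markers 12 were lower in elongating polysomes (66.7%, beside 8.38% of all genes) and none was higher. Their median log2 change was -2.89. Their summed scaled FPKM was 119, 118 and 115 in elongating libraries, against 613, 1630.2 and 2162 in pachytene libraries, and the groups did not overlap. Of 8 Leydig cell markers 6 were lower (75%), and the sum of the markers was 21.6, 35.4 and 15.3, against 169, 152 and 261. Without elongating replicates 1, 2 and 3 in turn 6, 7 and 5 Sertoli and 2, 2 and 1 Leydig markers were lower, and the counts were 12, 4 and 3 Sertoli and 4, 1 and 1 Leydig markers without pachytene replicates 1, 2 and 3. The Sertoli markers Sox9, Amh and Fshr and the Leydig marker Lhcgr were too low to be tested in these libraries. Markers of peritubular cells (7 tested, 1 higher), spermatogonia (13 tested, 1 lower) and blood cells (6 tested, 1 higher, 1 lower) showed few calls, with Actg2 and Cd74 as the higher ones and Id4 and Alas2 as the lower ones. Summed, the peritubular markers stood at 209, 149 and 157 in elongating polysomes and 33.7, 60.4 and 94.2 in pachytene polysomes, and the blood markers at 142, 86.4 and 65.0 and 17.6, 27.6 and 28.5. The part of somatic RNA in the lower genes was not tested. In bulk RNA, fewer cells of a type and less RNA per cell cannot be told apart.

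**Figure D2:**
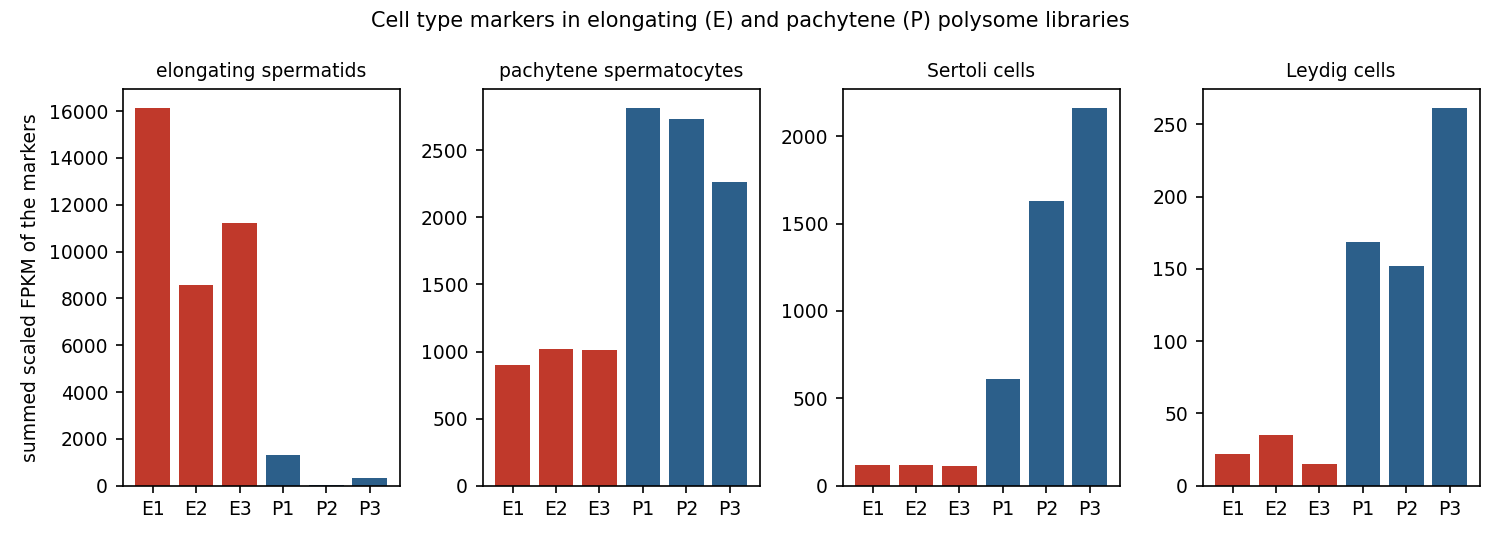
Summed scaled FPKM of the markers of 4 cell types (vertical axes, from 0) in each of the 3 elongating (E) and 3 pachytene (P) polysome libraries. Spermatid markers were high in all elongating libraries, and Sertoli and Leydig markers were high in all pachytene libraries.

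Of 11 tested genes of nuclear condensation 7 were higher (63.6%, beside 10.3% of all genes) and 1, Rnf8, was lower, with a median log2 change of 3.12. The count higher was 1, 2 and 0 without elongating and 7, 3 and 0 without pachytene replicates 1, 2 and 3, and 0 with the 9 polysome libraries or with all 18 libraries in 1 fit. Tnp2 (mm9 chromosome 16, 10788029 to 10788748) encodes transition protein 2, which replaces histones before protamines do. It stood at 5387, 2075 and 2804 scaled FPKM in elongating polysomes, against 314, 4.77 and 115 in pachytene polysomes, so the groups did not overlap while the pachytene libraries spread widely. Its log2 change was 5.73 ± 1.38 (SE, limma, adjusted p = 0.0326). Tnp1 (mm9 chromosome 1, 73061657 to 73062473), the gene of transition protein 1, stood at 2985, 1399 and 2312, against 460.0, 5.29 and 81.5, a change of 5.10 ± 1.41 (limma, adjusted p = 0.0482). Replicate 1 was the highest of both groups for Tnp1 and Tnp2. Spag4 and Sun5, which sit at the nuclear envelope of spermatids, were higher by 3.16 ± 0.56 (adjusted p = 0.0145) and 2.32 ± 0.60 (adjusted p = 0.0389). Each fit was repeated without each library in turn, and a call is lost where the adjusted p then reached 0.05. Calls were lost for Tnp1 without any library but pachytene replicate 1 (adjusted p up to 0.127), Tnp2 without any library but pachytene replicates 1 and 2 (adjusted p up to 0.0963), Sun5 without any library but pachytene replicate 1 (adjusted p up to 0.114) and Spag4 without elongating replicate 1 or 3 or pachytene replicate 3 (adjusted p up to 0.0658).

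The protamines could not be called. Prm1, whose protein packs sperm DNA, was listed at 1198, 916 and 0 in elongating polysomes, against 169, 2.09 and 69.0 in pachytene polysomes (limma, adjusted p = 0.72), and Prm2 at 0, 786 and 2159, against 0, 1.45 and 16.5 (adjusted p = 0.241). The 0 of Prm1 in elongating replicate 3 and of Prm2 in elongating replicate 1 mark libraries without an assembled spliced transcript of the gene.

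Of 23 tested genes of the fibrous sheath and outer dense fibres, the sleeves around the sperm axoneme, 13 were higher and none was lower. The share higher was 56.5%, beside 10.3% of all genes. The median log2 change was 1.83, and the groups did not overlap for 20 that were higher, beside 21.1% of all genes. Leaving out elongating replicates 1, 2 and 3 in turn left 4, 6 and 4 higher, leaving out pachytene replicates 1, 2 and 3 left 15, 7 and 4, and the fits over 9 and over 18 libraries each called 2. Oaz3 (mm9 chromosome 3, 94237088 to 94240538), a testis antizyme that restrains polyamine synthesis, stood at 3831, 1918 and 2342 scaled FPKM in elongating polysomes, against 111, 12.4 and 12.5 in pachytene polysomes. Its change of 6.57 ± 0.85 (limma, adjusted p = 0.00791) kept its call without each library in turn (highest adjusted p 0.0454). Odf1, a main protein of the outer dense fibres, stood at 1586, 797 and 962, against 133, 5.20 and 15.2, a change of 5.49 ± 1.05 (adjusted p = 0.0176). Akap4, the major anchoring protein of the fibrous sheath, stood at 345, 212 and 276, against 30.9, 5.25 and 6.16, a change of 4.60 ± 0.64 (adjusted p = 0.00948, at most 0.0475 without 1 library). The list thus held both very abundant and moderate mRNAs. Ropn1 and Spa17, whose proteins bind anchoring proteins of the sheath, were higher by 3.03 ± 0.61 (adjusted p = 0.0204) and 3.08 ± 0.61 (adjusted p = 0.0194), and Odf2 by 1.96 ± 0.55 (adjusted p = 0.049). Meig1, needed for the manchette of spermatids, was abundant in both groups at 1733, 1332 and 1104, against 1624, 312 and 558, and the groups overlapped (adjusted p = 0.285). Single omissions lost the calls of Odf1 without any library but elongating replicate 2 and pachytene replicate 1 (adjusted p up to 0.0773), Ropn1 without any library but pachytene replicates 1 and 2 (adjusted p up to 0.0772), Spa17 without any library but pachytene replicate 1 (adjusted p up to 0.0811) and Odf2 without any library but pachytene replicate 1 (adjusted p up to 0.132).

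The axoneme is the microtubule core of the flagellum. Of its 41 listed genes 15, among them the dynein heavy chains, were not matched in the annotation by their symbols. Of 24 tested 3 were higher, Tekt2, Tekt5 and Hydin (12.5%, near the 10.3% over all genes), and none was lower. The median log2 change was 0.71, and the groups did not overlap for 10 that were higher, beside 21.1% of all genes. Without 1 library the count was 4, 0 and 0 for pachytene replicates 1, 2 and 3 and 0 for each elongating replicate. With length-weighted values 8 of 24 were higher, beside 19.4% of all genes. Rsph1, of the radial spokes, stood at 908, 859.8 and 844 scaled FPKM in elongating polysomes, against 1391, 653 and 1078 in pachytene polysomes (limma, adjusted p = 0.774). Tekt4, a tektin of the doublet microtubules, stood at 251, 330.0 and 283, against 179, 57.0 and 193 (adjusted p = 0.148). For Rsph1 the groups overlapped, and for Tekt4 they did not.

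**Figure D3:**
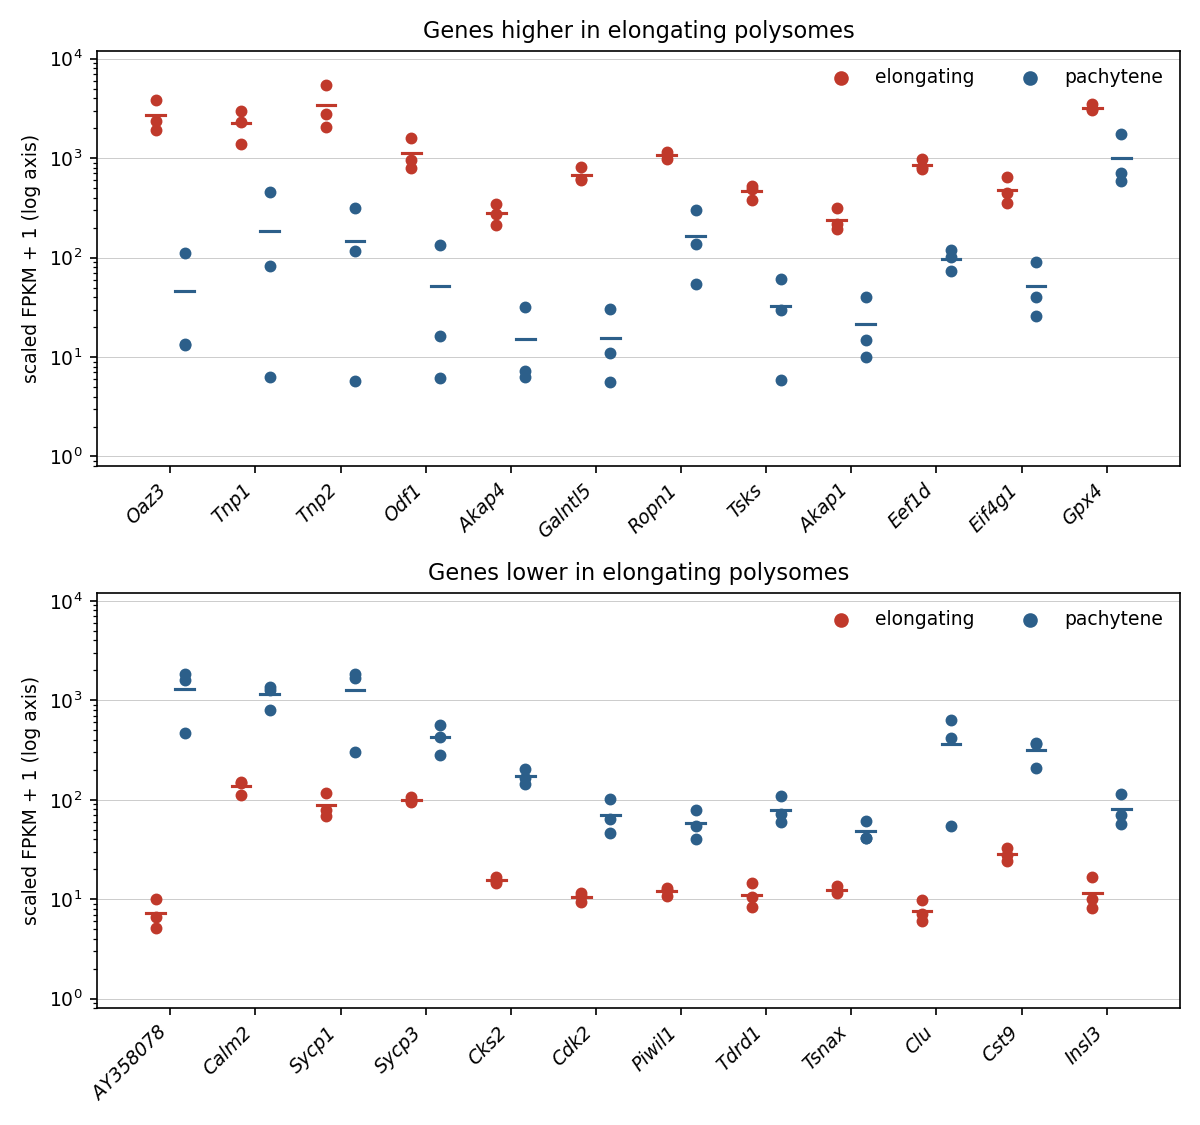
Scaled FPKM + 1 (log axis) of 24 genes in each of the 3 elongating and 3 pachytene polysome libraries, with a point per library and a bar at the mean of the group. The 12 genes in the upper panel were higher and the 12 in the lower panel lower in elongating polysomes, and the 2 groups of points do not overlap for any of them.

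Of 24 tested genes of the acrosome and of gamete fusion, 5 were higher (Spaca3, Spaca7, Izumo1, Izumo2 and Crisp2) and 1, Gopc, was lower. These are 20.8% and 4.17%, beside 10.3% and 8.38% of all genes. The 2 groups did not overlap for 17 that were higher, beside 21.1% of all genes, and the median log2 change was 1.59. The count higher was 0, 0 and 0 without elongating and 12, 1 and 0 without pachytene replicates 1, 2 and 3, and 0 in the fits over 9 and over 18 libraries. Crisp2, a cysteine-rich secretory protein of the acrosome and tail, stood at 673, 355 and 376 scaled FPKM in elongating polysomes, against 131, 164 and 42.6 in pachytene polysomes, a change of 2.19 ± 0.57 (limma, adjusted p = 0.0399). Spaca1 and Acrv1, both of the acrosomal membrane or matrix, were at 1.89 ± 0.63 and 2.37 ± 0.70 without passing (adjusted p = 0.0793 and 0.0555). Tmem190 stood at 420.4, 625 and 18120.2 in elongating polysomes, against 5996, 41.6 and 137 in pachytene polysomes, and its change of 2.36 ± 2.11 was not called (adjusted p = 0.467). Of 4 tested genes of the perinuclear theca, the shell between nucleus and acrosome, Cylc1 and Cylc2 were higher by 3.04 ± 0.78 (adjusted p = 0.039) and 2.98 ± 0.52 (adjusted p = 0.0143), and the other 2 were not called. The share higher in this list was 50%, beside 10.3% of all genes. Of the 15 listed, 6 more lack introns, 2 were too low to be tested and 3 were not matched in the annotation. Calls were lost for Crisp2 without any library but pachytene replicate 1 (adjusted p up to 0.119), Cylc1 without any library but pachytene replicates 1 and 2 (adjusted p up to 0.109) and Cylc2 without any library but pachytene replicates 1 and 2 (adjusted p up to 0.0615).

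Energy metabolism was uneven. Of 16 tested genes of sperm glycolysis 4 were higher, Gapdhs, Hk1, Gpi1 and Eno1 (25%, beside 10.3% of all genes). None was lower, and the median log2 change was 0.47. Leaving out 1 library gave 1, 1 and 1 higher for elongating and 4, 2 and 1 for pachytene replicates 1, 2 and 3. Hk1, hexokinase 1, stood at 356, 254 and 251 scaled FPKM in elongating polysomes, against 98.2, 26.6 and 68.0 in pachytene polysomes, a change of 2.31 ± 0.51 (limma, adjusted p = 0.0249). Ldhc, the testis lactate dehydrogenase, was among the most abundant mRNAs of both groups at 3679, 3325 and 3103, against 1797, 828 and 1826, and its change of 1.27 ± 0.48 did not pass (adjusted p = 0.108). The glucose transporter gene Slc2a3 did not pass, although its libraries did not overlap, at 320.5, 325 and 274, against 872, 471 and 804 (adjusted p = 0.0667). Of 15 tested genes of sperm mitochondria 3 were higher, Smcp, Spata19 and Gpx4, and 1, Cycs, was lower (20% and 6.67%, beside 10.3% and 8.38% of all genes). The count higher was 0, 0 and 0 without elongating and 4, 1 and 0 without pachytene replicates 1, 2 and 3. Gpx4, the selenoprotein of the sperm midpiece, stood at 3099, 3029 and 3482, against 1728, 699.6 and 584, a change of 1.84 ± 0.52 just under the threshold (adjusted p = 0.0497). The call was lost for Hk1 without any library but pachytene replicates 1 and 2 (adjusted p up to 0.0864) and Gpx4 without any library but pachytene replicate 1 (adjusted p up to 0.138).

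Of 16 tested spliced kinases and phosphatases 6 were higher and none was lower (median log2 change 1.38), and of 17 ion channels and signalling genes 7 were higher and none was lower (median 1.18). The shares higher were 37.5% and 41.2%, beside 10.3% of all genes. Among intronless kinases Tssk2 was called lower, but it passed the filter through pachytene libraries alone, as given in the closing section. Without elongating replicates 1, 2 and 3 in turn 1, 5 and 1 kinases and phosphatases and 0, 1 and 0 ion channel and signalling genes were higher, and the counts were 8, 6 and 0 for the first list and 9, 0 and 0 for the second without pachytene replicates 1, 2 and 3. The fits over 9 and over 18 libraries called 3 and 6 of the kinases and phosphatases and none of the ion channel and signalling genes, of which 2 were called with the replicate block. Tsks, the substrate of the testis-specific serine kinases, stood at 486, 380.0 and 529 scaled FPKM in elongating polysomes, against 60.1, 4.94 and 28.9 in pachytene polysomes, a change of 4.38 ± 0.80 (limma, adjusted p = 0.0158). Akap1, an anchoring protein of the mitochondrial surface that also binds RNA, stood at 315, 191 and 215, against 39.2, 9.08 and 13.7, a change of 3.70 ± 0.54 (adjusted p = 0.0101). For both genes the groups did not overlap, with pachytene replicate 1 the highest of its group. Ppp1r11, an inhibitor of protein phosphatase 1, was higher by 2.20 ± 0.35 (adjusted p = 0.0117). Catsper2, a subunit of the sperm calcium channel, the sperm sodium-proton exchanger gene Slc9a10 and the soluble adenylyl cyclase Adcy10 were higher by 1.81 ± 0.46, 1.18 ± 0.29 and 1.46 ± 0.32 (adjusted p = 0.0381, 0.0333 and 0.0256). Among 17 tested surface ADAM genes and their chaperones, Adam3, Adam5, Adam21 and Calr3 were higher (23.5%, beside 10.3% of all genes). Tex101 was lower (5.88%, beside 8.38% of all genes). Adam5 stood at 383, 701 and 427, against 82.7, 122 and 105. Adam2, the fertilin beta gene, overlapped at 288, 389 and 331, against 671, 296 and 782. Of this list 1, 1 and 0 were higher without elongating and 6, 2 and 1 without pachytene replicates 1, 2 and 3. Calls were lost for Tsks without elongating replicate 1 or 3 or pachytene replicate 3 (adjusted p up to 0.0623), Akap1 without pachytene replicate 3 (adjusted p = 0.0525), Ppp1r11 without elongating replicate 1 or 3 or pachytene replicate 3 (adjusted p up to 0.0568), Catsper2 without any library but elongating replicate 2 and pachytene replicate 1 (adjusted p up to 0.125), Slc9a10 without any library but pachytene replicate 1 (adjusted p up to 0.116), Adcy10 without any library but pachytene replicate 1 (adjusted p up to 0.0919) and Adam5 without elongating replicate 3 or pachytene replicate 3 (adjusted p up to 0.0554).

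The translation machinery showed single large changes within lists that moved little. Of 80 tested cytoplasmic ribosomal protein genes 3 were higher, among them Rpl15 and Rps20, and 1, Rpl10a, was lower, below the shares over all genes, with a median log2 change of -0.12. With quantile normalization 1 was higher and 6 were lower. Rpl15, of the large subunit, stood at 450.1, 500.4 and 682 scaled FPKM in elongating polysomes, against 56.9, 245 and 132 in pachytene polysomes, a change of 2.12 ± 0.55 (limma, adjusted p = 0.0402), but changed by 0.21 with length-weighted values and lost its call (adjusted p = 0.656). Ribosomal protein genes have many processed copies in the genome, and reads shared with these could move single values. Of 66 translation factors 6 were higher and 3 were lower, shares of 9.09% and 4.55% that lie under the 10.3% and 8.38% over all genes. The count higher was 3, 4 and 3 without elongating and 7, 3 and 4 without pachytene replicates 1, 2 and 3. Eef1d, of the exchange factor of elongation factor 1A, stood at 782, 818 and 971, against 117, 72.2 and 100.1, a change of 3.16 ± 0.32 (adjusted p = 0.00541). Eif4g1, the scaffold of the cap-binding complex, stood at 645, 447 and 351, against 89.2, 39.3 and 24.9, a change of 3.36 ± 0.51 (adjusted p = 0.011). Eef1d and Eif4g1 kept their calls without each library in turn, with an adjusted p of at most 0.0426 and 0.0491. Eef1a1, elongation factor 1A itself, overlapped at 761, 521 and 544, against 744, 960.3 and 1091 (adjusted p = 0.273). A call was lost for Rpl15 without any library but pachytene replicates 1 and 2 (adjusted p up to 0.124).

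Genes of mRNA storage and translational control went both ways. Of 32 tested 2 were higher and 6 were lower (6.25% and 18.75%, beside 10.3% and 8.38% of all genes), with a median log2 change of -0.55. The count lower was 1, 2 and 0 without elongating and 8, 2 and 1 without pachytene replicates 1, 2 and 3. Ddx25, a helicase of the chromatoid body, stood at 453, 524 and 523 scaled FPKM in elongating polysomes, against 90.5, 41.7 and 103 in pachytene polysomes, a change of 2.76 ± 0.41 (limma, adjusted p = 0.0101), but of 1.08 with length-weighted values, where it was not called (adjusted p = 0.0784). Paip2, which keeps poly(A)-binding protein from its partners, was higher by 1.68 ± 0.34 (adjusted p = 0.0203), and Paip1, which promotes translation with the same protein, was lower, at -1.55 ± 0.43 (adjusted p = 0.0467). The DEAD-box protein gene Ddx6 and the RNA-binding protein genes Qk, Tsn, Tsnax and Khdrbs1 were the other lower members. Tsnax, which partners translin, stood at 10.5, 11.4 and 12.7, against 40.4, 40.1 and 60.6, a change of -1.92 ± 0.31 (adjusted p = 0.0117). Ybx2, the Y-box protein that coats stored mRNA, stood at 379.8, 408 and 509, against 228, 238 and 315, and did not pass although the groups did not overlap (limma, adjusted p = 0.149). By library, calls were lost for Paip2 without any library but pachytene replicates 1 and 2 (adjusted p up to 0.0809), Paip1 without any library (adjusted p up to 0.143) and Tsnax without elongating replicate 1 or 3 (adjusted p up to 0.0579).

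Protein turnover and chaperones had their own exceptions. Of 26 tested ubiquitin genes of spermatids 7 were higher and 3 were lower (26.9% and 11.5%, beside 10.3% and 8.38% of all genes). Siah1a, among the lower ones, was listed at 0 in all elongating libraries and passed the filter through pachytene libraries alone. The count higher was 2, 3 and 3 without elongating and 7, 2 and 2 without pachytene replicates 1, 2 and 3. Rnf138, a RING ubiquitin ligase, stood at 439, 317 and 384 scaled FPKM in elongating polysomes, against 48.0, 38.3 and 40.4 in pachytene polysomes, with little spread in either group and a change of 3.13 ± 0.29 (limma, adjusted p = 0.00516, at most 0.0422 without 1 library). March10, a ligase of the spermatid flagellum, was higher by 1.92 ± 0.44 (adjusted p = 0.0278). Of 45 proteasome genes 2 were higher and 3 were lower, near or under the shares over all genes. Psme4, the activator of the spermatoproteasome, stood at 498, 594 and 674, against 407, 164 and 136, and did not pass (adjusted p = 0.0716). Of 23 heat shock genes 7 were called higher (30.4%, beside 10.3% of all genes), among them Hspa2 as described, and none was lower. With length-weighted values 4 of 23 were higher, beside 19.4% of all genes. From spliced values 0, 0 and 0 were higher without elongating and 7, 2 and 1 without pachytene replicates 1, 2 and 3. Hspa1l, a testis member of the HSP70 family, stood at 468, 416 and 383, against 36.0, 0 and 11.05, a change of 5.79 ± 1.19 (adjusted p = 0.0214), and it has close paralogs with which reads can be shared. The call was lost for March10 without any library but pachytene replicate 1 (adjusted p up to 0.0934) and Hspa1l without any library but pachytene replicates 1 and 2 (adjusted p up to 0.0733).

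**Figure D4:**
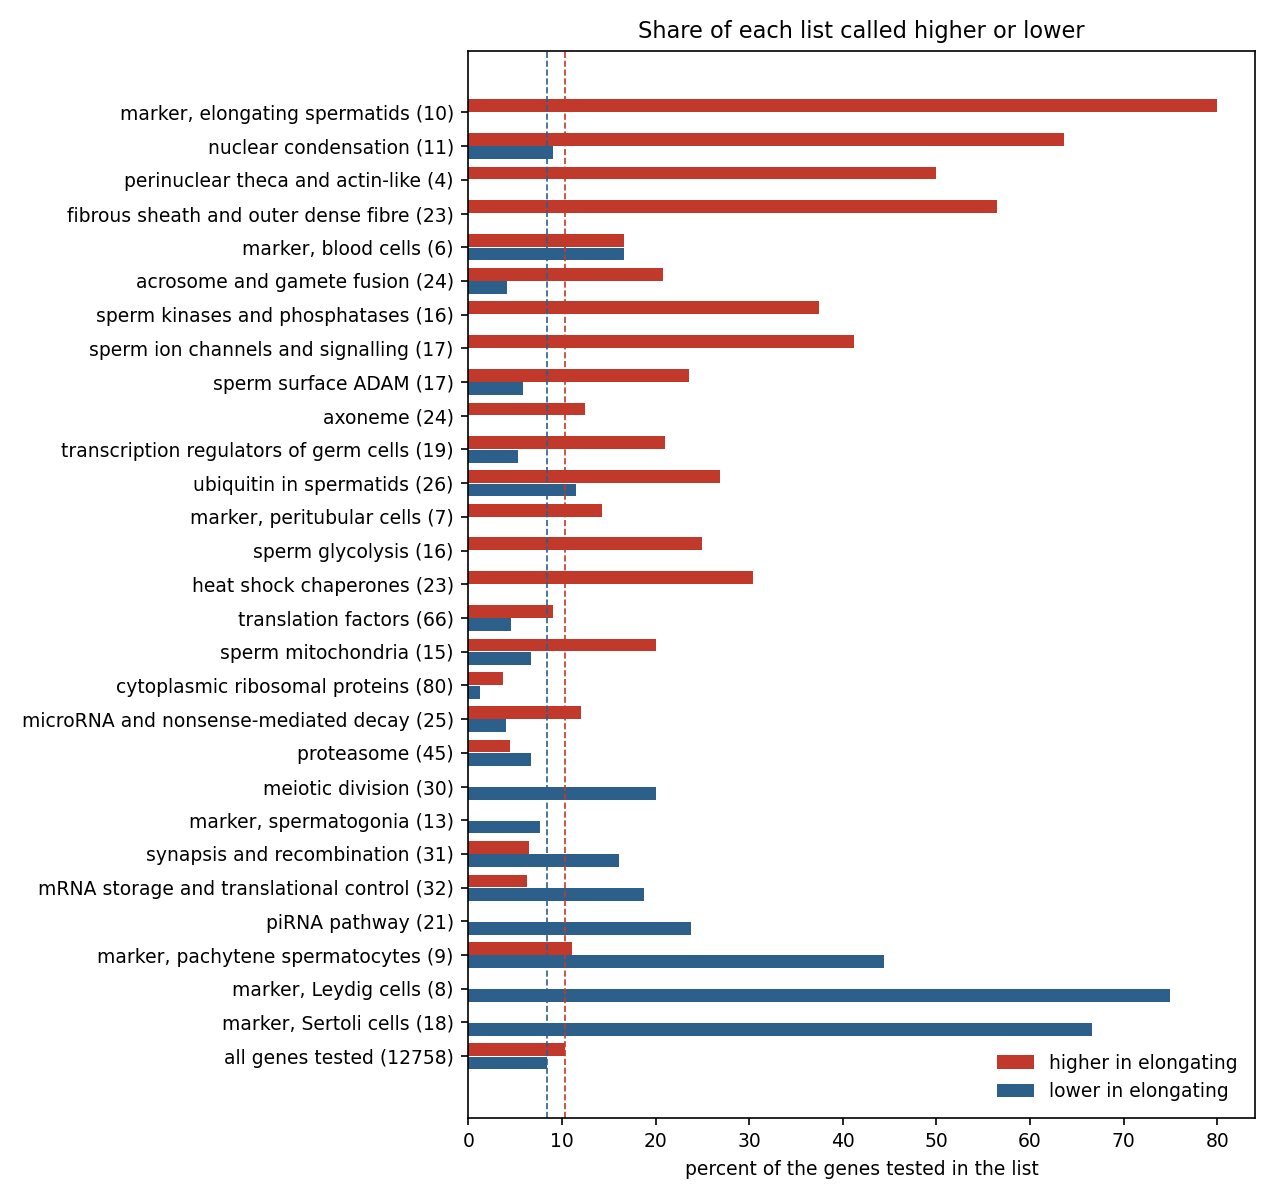
Share of the tested members of each gene list that were called higher or lower in elongating polysomes (horizontal axis, percent, from 0), ordered by the median log2 change of the list, with the number tested in brackets. Dashed lines mark the 10.3% higher and 8.38% lower over all genes, shown at the bottom. Markers of elongating spermatids and lists of the nucleus, the sheath and the theca held the largest shares higher, and Sertoli and Leydig markers the largest shares lower.

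Genes of meiosis were lower as a minority of their lists. Of 31 tested genes of synapsis and recombination 5 were lower (Sycp1, Sycp3, Tex12, Mlh3 and Mnd1) and 2 were higher (Syce2 and Rec8), with a median log2 change of -0.53. The shares were 16.1% lower and 6.45% higher, beside 8.38% and 10.3% of all genes. Lower were 0, 1 and 1 without elongating and 8, 2 and 1 without pachytene replicates 1, 2 and 3. Sycp1 (mm9 chromosome 3, 102622422 to 102740023) encodes the transverse filament of the synaptonemal complex. It stood at 67.9, 116 and 77.2 scaled FPKM in elongating polysomes, against 1848, 1667 and 304 in pachytene polysomes, a change of -3.52 ± 0.72 (limma, adjusted p = 0.0208). With length-weighted values the change of Sycp1 was -1.58 (adjusted p = 0.00432). Sycp3, of the axial element, stood at 94.9, 107 and 96.4, against 282, 424 and 564, a change of -2.03 ± 0.35 (adjusted p = 0.0135). Syce2, of the central element, and Rec8, the meiotic cohesin, went the other way by 2.72 ± 0.43 (adjusted p = 0.0117) and 1.65 ± 0.42 (adjusted p = 0.0381). Other meiotic mRNAs stayed abundant in both groups, such as Psmc3ip at 877, 728 and 614, against 546, 404 and 398, without overlap (adjusted p = 0.184), and Stag3 at 323, 145 and 298, against 483, 177 and 216, with overlap. Single omissions lost the calls of Sycp1 without any library but pachytene replicates 1 and 3 (adjusted p up to 0.0748), Sycp3 without elongating replicate 1 or 3 or pachytene replicate 3 (adjusted p up to 0.0627), Syce2 without pachytene replicate 3 (adjusted p = 0.0562) and Rec8 without any library but pachytene replicate 3 (adjusted p up to 0.116).

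Of 30 genes of the meiotic division 6 were lower (20%, beside 8.38% of all genes) and none was higher, with a median log2 change of -0.23. The lower ones were Cks2, Cdk2, Ccne2, Fbxo43, Cdk1 and Mad2l1, and their number was 2, 3 and 2 without elongating and 6, 3 and 2 without pachytene replicates 1, 2 and 3. Cks2, a small subunit of cyclin-dependent kinases, stood at 14.3, 15.7 and 13.4 scaled FPKM in elongating polysomes, against 165, 202 and 144 in pachytene polysomes, a change of -3.46 ± 0.28 (limma, adjusted p = 0.00412, at most 0.0422 without 1 library). Cdk2, a kinase of meiotic prophase, stood at 8.47, 10.4 and 9.84, against 62.5, 45.9 and 100.4, a change of -2.67 ± 0.36 (adjusted p = 0.00907), and Cdk1 at 18.7, 21.5 and 20.6, against 44.1, 47.2 and 51.7, a change of -1.19 ± 0.26 (adjusted p = 0.0259). The spread within each group was small beside these differences. The cyclin genes Ccnb2 and Ccna1, in contrast, stood at 238, 277 and 278 and at 247, 222 and 256 in elongating polysomes, against 222, 110.4 and 223 and 221, 84.9 and 232 in pachytene polysomes, and were not called (adjusted p = 0.314 and 0.415). The call was lost for Cdk1 without any library but pachytene replicate 1 (adjusted p up to 0.104).

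The piRNA pathway silences transposons in germ cells. Of 21 tested 5 were lower (23.8%, beside 8.38% of all genes) and none was higher, with a median log2 change of -0.64. Piwil1, a PIWI protein of pachytene cells, stood at 11.4, 12.1 and 9.73 scaled FPKM in elongating polysomes, against 38.9, 53.5 and 78.7 in pachytene polysomes, a change of -2.21 ± 0.35 (limma, adjusted p = 0.0114). Tdrd1, a Tudor protein that binds PIWI proteins, stood at 13.5, 9.49 and 7.30, against 58.2, 70.9 and 107, a change of -2.84 ± 0.37 (adjusted p = 0.00797), and the helicase gene Mov10l1 at 6.50, 9.94 and 6.38, against 53.0, 36.0 and 41.8, a change of -2.38 ± 0.33 (adjusted p = 0.00923). Gpat2 and Prmt5 were lower by smaller amounts, at -1.57 ± 0.40 and -1.73 ± 0.33. These 5 were named for their calls. The more abundant members Mael and Ddx4 (vasa) stood at 926, 705 and 1007 and 229, 331 and 249 in elongating polysomes, against 601, 233 and 397 and 197, 145 and 286 in pachytene polysomes, and were not called (adjusted p = 0.106 and 0.476). The list had 2, 3 and 2 lower genes without elongating and 6, 4 and 3 without pachytene replicates 1, 2 and 3, and 2 higher ones without pachytene replicate 1 alone. Single omissions lost the calls of Piwil1 without elongating replicate 1 or 3 (adjusted p up to 0.0552), Gpat2 without any library but pachytene replicate 2 (adjusted p up to 0.128) and Prmt5 without any library but pachytene replicate 1 (adjusted p up to 0.072).

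Of 19 tested transcription regulators of germ cells 4 were higher (Rfx3, Fhl5, Zfp37 and Foxj1) and 1, Gmcl1, was lower, beside 10.3% and 8.38% of all genes. With length-weighted values 11 of 19 were higher, beside 19.4%. From spliced values 0, 1 and 0 were higher without elongating and 5, 2 and 0 without pachytene replicates 1, 2 and 3. Crem, the activator of many spermatid genes, stood at 249, 192 and 206 scaled FPKM in elongating polysomes, against 113, 80.4 and 158 in pachytene polysomes, with no overlap and a change of 0.92 ± 0.35 that did not pass (limma, adjusted p = 0.108). Tcfl5 and Brdt overlapped, at 218, 139 and 229 and 130.4, 169.7 and 157 in elongating polysomes, against 227, 144 and 150.2 and 165, 108 and 122 in pachytene polysomes. Of 25 genes of microRNA action and nonsense-mediated decay 3 were higher (Xpo5, Tnrc6b and Rbm8a) and 1, Upf1, was lower, near the shares over all genes.

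The largest increases of single genes lay mostly outside these lists. By the rule for naming genes, the 12 largest changes, taken from non-overlapping genes that averaged 10 or more in elongating polysomes, included Oaz3 and the assembly case Hspa2. Galntl5, a testis glycosyltransferase-like protein, stood at 817, 608 and 603 scaled FPKM in elongating polysomes, against 29.1, 4.64 and 10.03 in pachytene polysomes, a change of 5.76 ± 0.60 (limma, adjusted p = 0.00541, at most 0.0422 without 1 library). The uncharacterized gene 4933437F05Rik stood at 191, 137 and 174, against 0, 1.87 and 0 (adjusted p = 0.00311), and Gm15415, annotated as a processed transcript, at 234, 151 and 45.6, against 3.53, 0 and 0 (adjusted p = 0.00831). For the coding genes 4931407G18Rik and 1700011F03Rik the changes were 6.14 ± 1.30 and 5.97 ± 1.18 (adjusted p = 0.0229 and 0.0192), and for the X-linked Gm6760 5.77 ± 1.28 (adjusted p = 0.0261). Klk1b9, of the kallikrein family, Hist1h2bp, of the H2B family, and 2810055G20Rik were listed at 0 in every pachytene library, at 106, 44.6 and 58.8, at 316, 460.0 and 453 and at 11.9, 31.1 and 583 in elongating polysomes. These genes passed the filter through elongating libraries alone. Their rank rests on the 1 added to each scaled FPKM, and no increase was measured in these values. Kallikrein and H2B genes have near-identical copies, so the source of their reads is uncertain. The most abundant genes of elongating polysomes by mean also included 1110017D15Rik, Dkkl1, Gstm5 and Efcab10. For 1110017D15Rik, at 2229, 1722 and 1126, against 132, 111 and 62.7, the change was 4.05 ± 0.44 (adjusted p = 0.00567), and Efcab10 varied too much within groups to be called, at 2658, 418 and 3185, against 116, 704 and 60.9. Calls were lost for 4931407G18Rik without any library but pachytene replicates 1 and 2 (adjusted p up to 0.0717), 1700011F03Rik without any library but pachytene replicates 1 and 2 (adjusted p up to 0.0725), Gm6760 without any library but pachytene replicate 1 (adjusted p up to 0.0964) and 2810055G20Rik without pachytene replicate 2 or 3 (adjusted p up to 0.0908).

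Among the largest decreases, AY358078 (mm9 chromosome 14, 52419721 to 52446034), a coding gene without a described role here, stood at 8.95, 5.64 and 4.09 scaled FPKM in elongating polysomes, against 1606, 464 and 1838 in pachytene polysomes. Its change was -7.32 ± 0.58 (limma, adjusted p = 0.00412), and -4.21 with length-weighted values (adjusted p = 0.00269). Calm2 (mm9 chromosome 17, 87832752 to 87846275), 1 of the calmodulin genes, stood at 145, 151 and 112, against 1276, 804 and 1354, a change of -3.04 ± 0.35 (adjusted p = 0.00641, at most 0.0454 without 1 library). These were among the most abundant mRNAs of pachytene polysomes. The genes 1810022K09Rik, Churc1, 1520401A03Rik, Serinc4, Tcea1, Timp2 and Siah1a were listed at 0 in all elongating libraries, with pachytene values of 12.4, 25.3 and 28.1 for the elongation factor gene Tcea1 and 29.3, 89.6 and 18.4 for Churc1. These genes passed the filter through pachytene libraries alone. Their rank rests on the 1 added to each scaled FPKM, and no decrease was measured in these values. Mrpl53, of the mitochondrial ribosome, at 0, 0 and 0.822, against 107, 124 and 60.5, had a length-weighted change of -0.50 (adjusted p = 0.287), and Serinc4 of -1.89 (adjusted p = 0.108), so both lost their calls there. The noncoding Gm14244 stood at 0, 3.92 and 4.99, against 88.5, 135 and 38.8 (adjusted p = 0.0129). Calls were lost for Gm14244 without pachytene replicate 2 (adjusted p = 0.0541).

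Clu and Amhr2, both in the list of Sertoli cell markers, also ranked among these decreases. The study used Clu in another role, as a ubiquitous gene without delayed translation, beside the delayed Tnp2. Which cells gave the Clu RNA was not tested. Clu, the gene of the secreted chaperone clusterin, stood at 6.14, 8.72 and 5.08 scaled FPKM in elongating polysomes, against 53.4, 415 and 630.5 in pachytene polysomes, a change of -5.02 ± 0.88 (limma, adjusted p = 0.0142). Amhr2, the receptor of anti-Müllerian hormone, stood at 4.45, 5.70 and 4.34, against 74.1, 102 and 235, a change of -4.40 ± 0.46 (adjusted p = 0.00546). Cst9, a cystatin of Sertoli cells, stood at 27.1, 23.2 and 32.1, against 207, 374 and 359, a change of -3.43 ± 0.34 (adjusted p = 0.00535). Insl3, the Leydig cell hormone, stood at 7.24, 15.7 and 9.01, against 113, 69.5 and 55.5, a change of -2.79 ± 0.41 (adjusted p = 0.0102). Pachytene replicate 1 was the lowest of its group for Clu, Amhr2 and Cst9 and the highest for Insl3. By library, calls were lost for Clu without any library but elongating replicate 2 and pachytene replicate 1 (adjusted p up to 0.0605) and Insl3 without elongating replicate 3 (adjusted p = 0.0518).

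Genes that the study singles out for their mRNA were spread over both directions. Of 13 with a value, 5 were higher and 1 was lower (38.5% and 7.69%, beside 10.3% and 8.38% of all genes). As the study chose some of them on these samples, their direction is not independent evidence. Ankrd5 (also called Ankef1) stood at 162, 145 and 195 scaled FPKM in elongating polysomes, against 27.0, 9.01 and 17.2 in pachytene polysomes, a change of 3.28 ± 0.42 (limma, adjusted p = 0.00777). Sgsm2, a regulator of Rab proteins, stood at 31.5, 18.2 and 23.3, against 0, 5.76 and 2.59, a change of 3.10 ± 0.71 (adjusted p = 0.0282), and the transcription factor gene Ubp1 at 57.3, 30.9 and 21.1, against 14.0, 9.93 and 8.42, a change of 1.58 ± 0.44 (adjusted p = 0.0477). Tnp2, Akap1 and Clu were the other called ones. Not called were Eif4h (0.89 ± 0.36), Apc (0.96 ± 0.45), Thoc7 (-0.58 ± 0.50), Fkbp6 (-1.61 ± 0.59), Tdrd5 (-1.55 ± 1.02), Hip1 (-0.91 ± 0.35) and Cebpg (-0.27 ± 0.44). The signs of Apc and Hip1 turned with length-weighted values, to -1.05 and 0.36, which were not called either. Single omissions lost the calls of Sgsm2 without any library but pachytene replicates 1 and 2 (adjusted p up to 0.0897) and Ubp1 without any library but pachytene replicate 1 (adjusted p up to 0.14).

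The classes of genes differed in their shares. Of 320 tested genes annotated as processed transcripts, which do not code for protein, 89 were higher and 10 lower, with a median log2 change of 1.24, against 1213 higher and 1045 lower of 12229 protein-coding genes with a median of -0.03. Of 192 lincRNA genes 12 were higher and 13 lower. The X chromosome, silenced in pachytene spermatocytes, had 54 higher and 42 lower of 431 coding genes with a median of 0.04, against 1159 and 1002 of 11790 on autosomes with a median of -0.03.

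Called genes differed in their annotated 3′ UTR. With the longest annotated coding mRNA of each gene, the median 3′ UTR was 623 nucleotides over 1192 higher genes, 1056 over 1031 lower genes and 951 over all 12079 with such an mRNA. Their median coding lengths were 1258.5, 1119 and 1377 nucleotides. Per library, the FPKM-weighted mean of log2 3′ UTR length over isoforms with an annotated intron chain corresponded to 295, 292 and 289 nucleotides in elongating polysomes, against 355, 394 and 416 in pachytene polysomes. The mean log2 values of 8.19 ± 0.01 and 8.60 ± 0.12 (SD, n = 3 each) differed by -0.41, with no overlap (exact permutation test, two-sided, p = 0.1, the smallest that 3 against 3 libraries allow). Counting each isoform with an FPKM of at least 1 once, the difference was -0.18. FPKM divides by transcript length, so a transcript weighs in these means by its molecules and not by its reads. Each length is the longest annotated for its intron chain, so a shift of the 3′ end within the last exon cannot be seen. A smaller share of spliced transcripts had such a chain in elongating than in pachytene libraries, as given below, and its part in the difference was not tested.

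Single isoforms, matched by their whole annotated intron chain, were tested in the same way. Of 6992 tested 450 were higher (6.44%) and 666 were lower (9.53%), around a median log2 change of -0.36. A full annotated chain was found for 21.0% to 23.3% of the spliced transcripts of elongating libraries, against 26.4% to 35.8% in pachytene libraries, and the part of this difference in the lower isoforms was not tested. The balance turned with the libraries. Without elongating replicates 1, 2 and 3 in turn 45, 73 and 56 isoforms were higher and 264, 364 and 361 lower, whereas 602, 237 and 216 were higher and 158, 13 and 12 lower without pachytene replicates 1, 2 and 3. With an FPKM of at least 5, 368 were higher and 352 lower, and with the replicate number as a block 11 and 2. In 12 genes isoforms were called in both directions, of 531 genes with at least 2 tested, and 6 of these pairs are named here after their values were seen. For Hmox2, heme oxygenase 2, isoform 002 with an annotated 3′ UTR of 144 nucleotides stood at 548, 428 and 527 scaled FPKM in elongating polysomes, against 131, 34.2 and 93.4 in pachytene polysomes, and isoform 001 with 637 nucleotides at 0, 0 and 0, against 36.8, 41.7 and 25.4. For Phyhipl, isoform 004 with a 3′ UTR of 370 nucleotides stood at 123, 98.7 and 102, against 28.9, 14.0 and 12.7, and isoform 001 with 1565 at 0, 0 and 0, against 4.32, 4.42 and 6.80. The isoforms Trp53rk-002, with 213 nucleotides, and Trp53rk-001, with 3645, stood at 20.9, 17.5 and 20.9 and at 0, 0 and 0 in elongating polysomes, against 0, 0 and 0 and 1.57, 3.08 and 2.68. For Lipe, the hormone-sensitive lipase, isoform 003 stood at 211, 147 and 143, against 17.2, 0 and 0, and isoform 002 at 0, 0 and 0, against 4.16, 4.38 and 7.12. Aldoa-003 and Aldoa-001, of the glycolytic aldolase A, stood at 108, 67.6 and 81.3 and at 0, 0 and 0 in elongating polysomes, against 10.4, 0 and 0 and 25.3, 69.4 and 112. Rnf138-202 and Rnf138-201, whose 3′ UTRs have the same annotated length of 2069 nucleotides, stood at 149.6, 83.8 and 94.8 and at 0, 0 and 0, against 14.7, 6.94 and 7.80 and 33.3, 31.4 and 32.6. The annotated 3′ UTRs of the higher and the lower isoform have 183 and 185 nucleotides in Aldoa, 3299 and 3301 in Zfp592 and 1324 in both isoforms of Reep6, and no length is given for the higher isoform of 1810013D10Rik, G6pc3 and Yme1l1. Where an isoform is listed at 0, its chain was not assembled in that library. In all 12 genes the lower isoform was listed at 0 in all 3 elongating libraries, so it passed the filter through pachytene libraries alone. Some higher isoforms, such as Trp53rk-002, passed through elongating libraries alone. The calls in both directions therefore measure no switch between isoforms.

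The same stage comparison in RNPs, the light fractions of such gradients, gave mostly the same sign for genes called in polysomes. Of the 1319 genes higher in elongating polysomes 1145 were tested in RNPs, and 1098 of these had a positive change there, with a median of 2.07 in RNPs beside 2.49 in polysomes. Of the 1069 lower genes 680 were tested in RNPs and 641 had a negative change, with a median of -1.21 beside -1.86. Called the same way in RNPs were 119 of the 1145 and 16 of the 680 genes, and none was called the opposite way. The share of all genes with the same sign in both fractions was not computed, so the sign counts are descriptions. Over all genes the median RNP change was 0.12, and the correlation across the 10765 genes tested in both was 0.73 (Pearson, given as a description, since the genes are not replicates and libraries of a stage may share purifications). Alone, the RNP libraries gave 166 higher and 25 lower calls of 10918 genes tested, and 2474 at an unadjusted p under 0.05. Pachytene RNP replicate 3 held 73290 splice junctions, against 98258 to 118789 in the other RNP libraries of these stages. Tnp2 had an RNP change of 4.44 (limma, adjusted p = 0.133), Rnf138 of 3.50 (0.0327), Cks2 of -3.14 (0.0327) and Sycp1 of -0.48 (0.779). The difference between the 2 stage changes was called for 3 of 13225 genes (0.0227%), with 622 at an unadjusted p under 0.05, and 2 of the 3 were listed at 0 in all 6 polysome libraries.

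**Figure D5:**
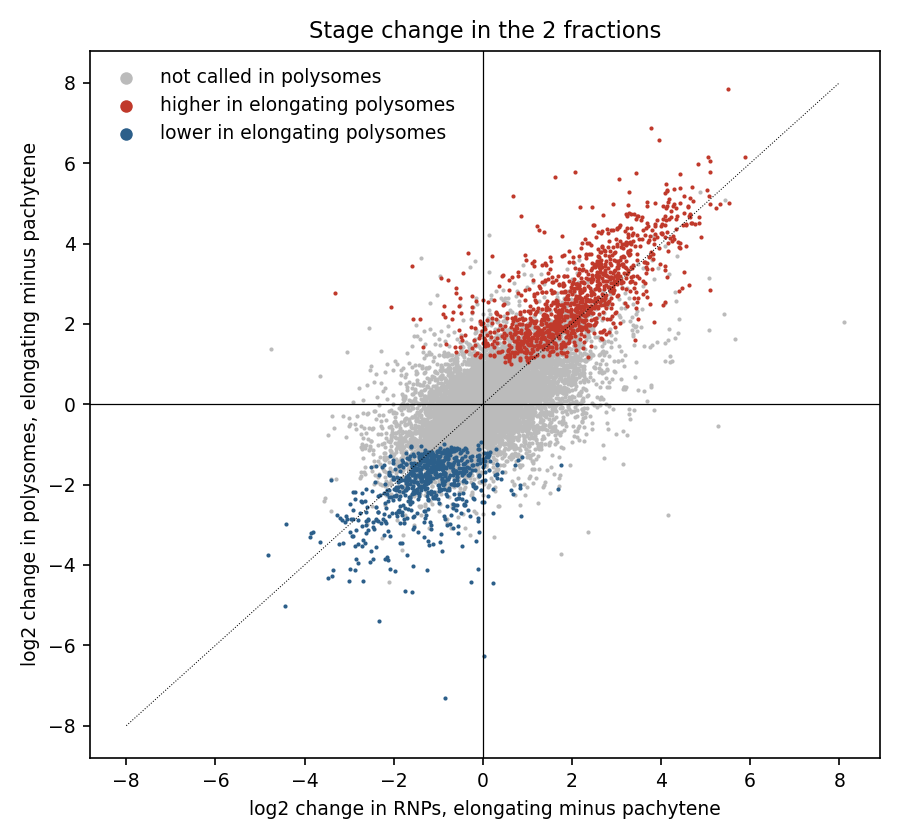
Log2 change of elongating minus pachytene in polysomes (vertical axis) against the same in RNPs (horizontal axis) for the 10765 genes tested in both, coloured by their call in polysomes, with the line of equal change dotted. Most genes higher in elongating polysomes lie right of 0, and most lower ones lie left of it.

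Polysomes of round spermatids, the stage between, are given side by side. Scaled over all 18 libraries, the median of the 3 round libraries lay between the elongating and pachytene medians for 1156 of the 1319 higher and 895 of the 1069 lower genes. These genes were chosen for a gap between the elongating and pachytene libraries, which favours a round median inside it. The share over all genes was not computed, so these counts do not show a graded change. Tnp1 stood at 321, 14.4 and 156 in round polysomes, Oaz3 at 336, 0 and 72.4, Sycp3 at 98.0, 393 and 199 and AY358078 at 5.11, 5.91 and 6.01. Round replicate 2 stands apart from the other round libraries, with low spermatid mRNAs and high Clu (18.7, 953 and 32.5), so the round median often rests on the other 2 libraries.

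The cyclic AMP response element, the palindrome TGACGTCA bound by CREM, was sought in promoters of RefSeq genes (GRCm38.p6, 250 bases before to 50 after the start). It was present for 4.40% of 864 higher genes, 3.10% of 773 lower genes and 3.68% of all 9032 tested genes with a promoter of the same symbol, beside 1.79% of all 32851 promoters. The letters are the same on both strands. Of the called genes named by the rule Spag4 holds it, 37 bases before its start (GRCm38.p6, plus strand, chr2:156065166-156065193, the element in capitals):
Spag4: tggctcccagTGACGTCAcgggcgctct
A match is a description of these letters and not a bound site.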

How the data were processed

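Large RNA from polysomes (heavy) and ribonucleoprotein (light) gradient fractions was sequenced from a stranded total RNA kit, partly with single and partly with paired reads, and which library had which is not given in the sources used here. According to the study's methods and the labels, the authors used FASTX-Toolkit for trimming, TopHat2 for alignment to mm9 and then Cufflinks for a separate assembly per library (versions not given in the sources used here). The deposited values are FPKM of assembled transcripts, before the study's own normalization to control mRNAs. Assembling each library alone can list a low or fragmented transcript at 0.

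Spliced transcripts were assigned by strand and shared splice junction to GENCODE vM1 genes (mm9), and their FPKM were summed per gene. Libraries were scaled by the median ratio to the geometric mean. Genes with a scaled FPKM of at least 1 in at least 3 of the 6 libraries were tested on log2(scaled FPKM + 1) with limma 3.58.1 (trend, R 4.3.3) and Benjamini-Hochberg adjustment over all genes tested. The same fit was run on isoforms matched by their whole intron chain, on the 6 RNP libraries, and, with an interaction term, on all 12 libraries of both stages and fractions. The test was checked on simulated data. Tables and plots were made with Python 3.11.15, pandas 2.3.3 and matplotlib 3.10.9. Depth and counting error are unknown, as the files hold no counts.

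Named genes are up to 12 per direction by fold among called genes (mean of at least 10 in the higher group, no overlap), up to 6 members per list by mean level, the genes the study names and the 10 most abundant per group. Other called list members, and members set beside them, were named after their values were seen. The members and the 29 lists were chosen with earlier results of these data known. Alternatives were other scalings, filters, pseudocounts and assignments, the fit over more libraries, the replicate number as a block and leaving out each library. The length-weighted value, which adds same-strand single-exon pieces that lie by at least 50% in exons of the gene, was chosen after seeing the data. The values of 1 gene are not reported here.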

Additional observations from a re-analysis of the deposited data

Results flagged for a closer look

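The interaction term of stage and fraction (limma, 13225 genes tested) was called for 3 genes. AY358078 had an interaction of -6.37 on the log2 scale (adjusted p = 0.0043). Over the 12 libraries it stood at 6.23, 3.98 and 2.88 in elongating polysomes, against 1097, 350.0 and 1268 in pachytene polysomes, and at 9.99, 6.15 and 8.23 in elongating RNPs, against 13.5, 13.6 and 20.1 in pachytene RNPs. With length-weighted values its interaction was -3.19 (adjusted p = 0.268).

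Ost4, a small subunit of the oligosaccharyltransferase, had an interaction of 6.69 (adjusted p = 0.00331). It was listed at 0 in all 6 polysome libraries and in all 3 elongating RNP libraries, against 101, 65.5 and 161 in pachytene RNPs, through which alone it passed the filter. Ralyl, an RNA-binding protein gene, had an interaction of -4.88 (adjusted p = 0.0117). It was listed at 0 in all 6 polysome libraries and in pachytene RNPs, and at 25.3, 21.7 and 41.4 in elongating RNPs, through which alone it passed the filter. For Ost4 and Ralyl no change in polysomes was measured, and both interaction values rest on the pseudocount of 1 set against transcripts that were not assembled.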

How the results depend on the processing

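Calls depended strongly on the spread over 3 against 3 libraries, and depth is unknown. Of genes, 480 were higher and 322 lower with the 9 polysome libraries in 1 fit, 414 and 195 with all 18, 454 and 601 with only annotated intron chains, and 2633 and 2156 with length-weighted values (added after seeing the data). Leaving out 1 library gave 199 to 1724 higher and 110 to 1044 lower genes, and 45 to 602 higher and 12 to 364 lower isoforms.

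Same-numbered libraries did not deviate together (correlation 0.08, 0.03 and -0.06), so the numbers were not taken as pairs. With the replicate block 989 genes were higher and 599 lower, and 11 and 2 isoforms. With an FPKM of at least 5, 352 isoforms were lower. The difference between polysomes and RNPs was called for 3 higher and 4 lower genes with FPKM as deposited, 7 and 7 with a pseudocount of 0.1, 2 higher with quantile normalization, 1 lower with an FPKM of at least 5, 5 lower with length-weighted values and 1 lower with the replicate block. The 3′ UTR difference of -0.41 was -0.18 unweighted and -0.47 to -0.36 without 1 library. Quantile normalization moved the median change of all genes by -0.11 and unscaled FPKM by -0.22.

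Among named genes, only annotated intron chains turned Spa17 to -2.68, Paip2 to -2.41, Qk to 0.55, March10 to -4.34, Cdk1 to 0.72 and Cdk2 to 1.60, none of them called, and length-weighted values turned Hspa2 to -0.075. No other called gene named with values changed direction under these alternatives.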

Other observations

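Genes without introns could not enter the comparison of spliced transcripts and were fitted after adding single-exon assemblies. Of 368 tested, 84 were higher in elongating polysomes and 26 lower, with a median log2 change of 0.51. The same fit called 1386 higher and 1112 lower of all 13124 genes, spliced and intronless. Some called intronless genes, such as Snora81, were listed at 0 in all 3 libraries of 1 group and passed the filter through the other alone. Hils1, a spermatid linker histone, stood at 957, 1066 and 1362 scaled FPKM in elongating polysomes, against 191, 18.6 and 45.6 in pachytene polysomes, a change of 4.32 ± 0.79 (limma, adjusted p = 0.0156). Pgk2, the testis phosphoglycerate kinase, stood at 226, 176 and 216, against 50.5, 15.4 and 21.7, a change of 2.94 ± 0.46 (adjusted p = 0.0117). Actrt1, an actin-related protein of the sperm head, stood at 39.1, 33.4 and 37.7, against 3.24, 0 and 1.54 (adjusted p = 0.00935). In the other direction Tssk2, a testis-specific serine kinase, was called lower. It was listed at 0 in all 3 elongating libraries, against 27.7, 3.40 and 7.11 in pachytene polysomes. It passed the filter through the pachytene libraries alone, so no decrease was measured. The testis histone gene Hist1h2ba was lower, at 134, 233 and 233, against 431, 1546 and 695, a change of -1.99 ± 0.54 (limma, adjusted p = 0.0455). Pcbp1, a poly(C)-binding protein, stood at 5.13, 5.68 and 4.98, against 39.9, 37.2 and 63.9, a change of -2.90 ± 0.33 (adjusted p = 0.00655). The small nucleolar RNA Snora81 was listed at 0 in all 3 elongating libraries, against 26330.3, 9352 and 33806 in pachytene polysomes. These genes were named after their values were seen, and intronless genes can share reads with the spliced genes they were copied from.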
